A study of Mus musculus with 8 samples.

Results

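The 231 covered regions of the mouse Hox clusters, out of 220894 regions over the whole genome, were described by cluster and by position from anterior to posterior genes. A region was taken where at least 1 bp lay within Hoxa (chr6:52155367-52260880), Hoxb (chr11:96194316-96368254), Hoxc (chr15:102921131-103036856) or Hoxd (chr2:74668225-74765142), in mm10. These bounds are the outer ends of the terminal Hox genes of each cluster in the RefSeq gene table. The regions came from bisulfite sequencing of genomic DNA, enriched with an Agilent SureSelect capture kit for mouse methylation sequencing, in 8 mouse cell lines.

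The IDH mutant group had 4 lines grown from brain tumours, and 2 further tumour lines, from RAS gliomas, were wild type for IDH. The remaining 2 lines, also IDH wild type, were immortalized astrocytes. The mice of the mutant tumour lines and of both astrocyte lines carried N::TVA, a transgene for the avian retrovirus receptor TVA, together with a genotype that included Cdkn2alox/lox and Atrxlox/lox. Those of the wild-type tumour lines carried N::TVA and Cdkn2alox/lox. Among the tumour lines IDH status and the Atrx allele therefore cannot be told apart, and between mutant tumour lines and astrocytes IDH status and cell type cannot be told apart. The astrocyte lines are named PDGFA and IWT-PDGFA, and the latter expresses exogenous wild-type IDH1. All lines shared N::TVA, Cdkn2alox/lox and a mixed C57Bl/6, 129 and FVB/n background. Each region carried 1 score from the authors for the whole series, given as a whole number. What the score counts is not stated. It is not a methylation level and has no value per line, so mutant and wild-type lines were not compared, no depth or replicate error is known, and every value below is a description without a test.

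Hox genes encode homeodomain transcription factors that give cells of the embryo their position along the head-to-tail axis. In each cluster the genes lie in the order in which they are used along the body, with low-numbered (anterior) genes at one end and high-numbered (posterior) genes at the other. Genes of the same number in different clusters are paralogs descended from one ancestral gene. The clusters are rich in unmethylated CpG islands under Polycomb control in cells that do not express them. Hox genes are largely silent in normal forebrain and some are expressed in human glioma. DNA methylation at them is much studied in that tumour.

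Of the transcripts that the clusters carry, the microRNAs are short enough to show whole. The arms below are those with the family seeds, from RefSeq (GRCm38.p6). Capitals mark the seed, bases 2 to 8, which pairs with target mRNAs. miR-10 and miR-196 are background examples of microRNAs that target Hox mRNAs, and each family has copies in several clusters.
mmu-miR-10a-5p: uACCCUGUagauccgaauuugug
mmu-miR-10b-5p: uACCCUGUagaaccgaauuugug
mmu-miR-196a-5p: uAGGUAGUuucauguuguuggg
mmu-miR-196b-5p: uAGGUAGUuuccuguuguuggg
mmu-miR-615-3p: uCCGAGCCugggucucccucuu
miR-10a and miR-10b shared the seed ACCCUGU, and miR-196a and miR-196b shared AGGUAGU. Regions covered 3 of the 6 microRNA genes over their whole hairpin, whereas 16.3% of all microRNA genes in the table were touched by a region. Mir10a, beside Hoxb4, lay in a region of score 1118 (chr11:96316381-96317320). Mir10b, inside the Hoxd4 gene, lay in one of score 727 (chr2:74726001-74727430), and Mir196b, between Hoxa9 and Hoxa10, in one of score 372 (chr6:52229651-52230290). Thus both miR-10 genes were covered. Both copies that encode miR-196a were outside every region, Mir196a-1 of Hoxb by 314 bp and Mir196a-2 of Hoxc by 320 bp. Mir615, inside Hoxc5, lay 150 bp from the nearest region.

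The upstream sequences show the CpG content before gene starts with high, low and no score, and they lie partly inside and partly outside the regions. Capitals mark CpG dinucleotides, the sites that mammalian DNA methylation acts on, in the 250 bases before the start that RefSeq's promoter table (GRCm38.p6) gives. The set holds the highest and the lowest scoring gene start of each cluster and those with no region, where the table had a promoter. Hoxb6, Hoxc5 and Hoxc13 would also belong to it and are only named. Hoxa13 was added after its values were seen, because its promoter is dense in CpG and lay outside all regions.
Hoxa7: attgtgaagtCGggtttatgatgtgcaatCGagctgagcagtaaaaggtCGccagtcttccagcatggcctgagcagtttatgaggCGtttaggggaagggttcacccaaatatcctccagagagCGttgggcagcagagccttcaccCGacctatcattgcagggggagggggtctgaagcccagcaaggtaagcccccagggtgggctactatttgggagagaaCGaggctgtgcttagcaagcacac
Hoxa11: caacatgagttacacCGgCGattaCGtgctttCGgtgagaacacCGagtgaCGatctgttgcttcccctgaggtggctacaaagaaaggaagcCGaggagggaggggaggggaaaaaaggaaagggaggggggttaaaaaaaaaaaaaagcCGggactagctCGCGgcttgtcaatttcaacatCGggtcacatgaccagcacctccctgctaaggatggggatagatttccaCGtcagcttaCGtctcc
Hoxa13: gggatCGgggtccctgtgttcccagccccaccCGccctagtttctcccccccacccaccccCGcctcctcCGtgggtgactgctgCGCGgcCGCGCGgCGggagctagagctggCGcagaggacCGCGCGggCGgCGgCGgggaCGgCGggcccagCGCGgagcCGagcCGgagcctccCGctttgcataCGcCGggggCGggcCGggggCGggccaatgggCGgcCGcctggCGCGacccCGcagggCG
Hoxb8: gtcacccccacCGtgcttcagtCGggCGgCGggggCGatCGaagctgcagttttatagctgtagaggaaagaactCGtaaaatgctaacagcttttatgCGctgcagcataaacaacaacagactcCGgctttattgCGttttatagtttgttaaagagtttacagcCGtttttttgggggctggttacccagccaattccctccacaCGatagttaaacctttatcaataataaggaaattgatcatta
Hoxc4: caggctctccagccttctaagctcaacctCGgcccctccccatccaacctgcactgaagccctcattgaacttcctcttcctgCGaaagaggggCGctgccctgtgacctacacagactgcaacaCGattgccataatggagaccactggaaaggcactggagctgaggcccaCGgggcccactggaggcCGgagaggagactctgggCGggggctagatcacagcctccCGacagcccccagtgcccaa
Hoxd1: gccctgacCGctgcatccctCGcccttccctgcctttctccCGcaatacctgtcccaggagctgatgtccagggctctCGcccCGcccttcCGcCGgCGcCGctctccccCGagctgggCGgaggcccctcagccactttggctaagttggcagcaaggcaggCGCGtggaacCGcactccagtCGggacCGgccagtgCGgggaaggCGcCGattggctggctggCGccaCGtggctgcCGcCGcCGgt
Hoxd4: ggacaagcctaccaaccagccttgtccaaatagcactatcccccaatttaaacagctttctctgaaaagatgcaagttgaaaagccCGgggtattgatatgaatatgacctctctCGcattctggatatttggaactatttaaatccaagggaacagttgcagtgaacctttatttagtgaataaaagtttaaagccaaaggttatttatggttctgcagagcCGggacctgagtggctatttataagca
Hoxd9: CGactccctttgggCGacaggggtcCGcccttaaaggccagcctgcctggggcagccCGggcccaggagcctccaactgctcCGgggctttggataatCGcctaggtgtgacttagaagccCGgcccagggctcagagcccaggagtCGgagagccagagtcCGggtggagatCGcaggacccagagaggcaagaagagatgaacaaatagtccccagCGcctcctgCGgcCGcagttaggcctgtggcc
The Hoxa7 stretch (chr6:52218574-52218823, minus strand) held 7 CpGs and lay wholly inside the region with the highest score of its cluster, 1822. The Hoxa11 stretch (chr6:52245811-52246060, minus strand) held 13 CpGs and was also wholly covered, by a region of score 443. Hoxd1 (chr2:74762730-74762979, plus strand) had 24 CpGs, wholly in a region of score 208. More CpGs did not go with a higher score in these 3 stretches. They were picked by score, and their regions were 2800, 1460 and 450 bp wide, in the same order as the scores. CpG number and region width therefore cannot be told apart here. The Hoxa13 stretch (chr6:52260881-52261130, minus strand) held 35 CpGs, Hoxd9 (chr2:74697513-74697762, plus strand) held 13 and Hoxd4 (chr2:74721728-74721977, plus strand) held 3, and none of their bases lay in a region. The promoters listed for Hoxb8 (chr11:96281655-96281904, plus strand, uncovered) and Hoxc4 (chr15:103034145-103034394, plus strand, wholly covered) lie 2504 and 16298 bp from the outer start of the gene. They belong to other transcripts than the outer start used below.

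The Hox clusters were covered far more densely than the sequence beside them. Regions filled 53.5% of Hoxa, 36.2% of Hoxb, 29.8% of Hoxc and 36.4% of Hoxd. Their own chromosomes were covered to between 4.38% (chromosome 6) and 7.59% (chromosome 11), and the whole list spanned 4.46% of the genome. Together the clusters made up 0.0185% of the sequence spanned by the list and held 0.159% of the covered bases. The number of regions was 56 in Hoxa, 77 in Hoxb, 49 in Hoxc and 49 in Hoxd, or 4.23 to 5.31 regions per 10 kb, beside 0.830 over the genome. The middle gap between neighbouring regions was 450 bp in Hoxa, 570 bp in Hoxb, 860 bp in Hoxc and 580 bp in Hoxd, and 3550 bp over all chromosomes. Of 26626 tiles of 100 kb on a fixed grid, 5 of the 100 most covered overlapped a Hox cluster, and a tile of Hoxa, 40.3% covered, had rank 8. Dense cover was not particular to Hox genes. The covered share of a gene ran from 4.67% at Hoxd1 to 94.2% at Hoxa2. Among 77 other homeobox and T-box genes it ran from 2.06% at Meox2 to 81.1% at Barx1. The part that the kit's choice of targets has in this cover was not tested.

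The edges of the clusters were sharp on some sides and gradual on others. In the 100 kb beyond each end, 9.53% of the sequence was covered over all 8 flanks, with a range from 2.26% to 18.4%. Beyond Hoxd1 the flank towards Mtx2 was covered to 2.41%, and beyond Hoxc13 to 2.26%. Beyond Hoxc4 the value was 18.4%, with no protein-coding gene in that flank. Posterior of Hoxd13, where the flank held 12.4%, coverage continued into Evx2, and the next 10 kb bin beyond the cluster was covered to 53.3%. Evx1 and Evx2 are even-skipped homeobox genes that lie next to Hoxa13 and Hoxd13. Evx1 was covered to 75.7% of its length, with 1282 as the highest score within 1000 bp of its start, and Evx2 to 65.9%, with 1003. The genes without a homeobox around the clusters were covered less, from 2.46% of Lnpk and 2.84% of Mtx2 to 15.6% of Ttll6.

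**Figure D1:**
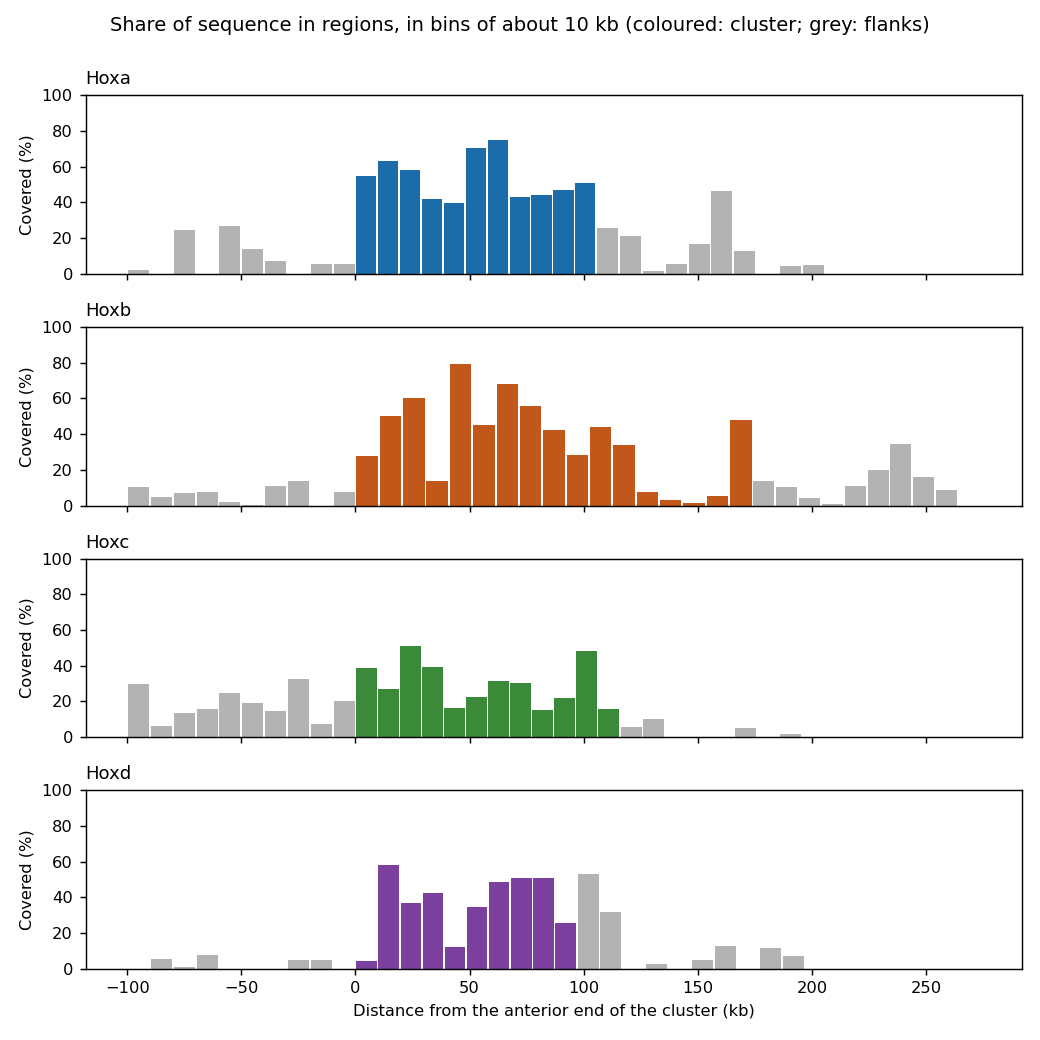
Share of sequence covered by regions (%) in bins of about 10 kb, against the distance from the anterior end of each cluster (kb); coloured bars lie inside the cluster and grey bars in the 100 kb on each side. Bins inside Hoxa run from 39.5% to 75.1%, whereas Hoxb falls to 1.56% in its posterior part, and the medians of the flanking bins lie between 3.80% and 7.92%.

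Coverage was uneven within the clusters. Hoxa had the most even cover, with every 10 kb bin between 39.5% and 75.1% and a longest uncovered stretch of 5360 bp, inside the long Hoxa3 gene model (chr6:52181271-52186630). Hoxb has no paralogs 10 to 12. The interval of 74.7 kb between Hoxb13 and Hoxb9 was covered to 20.7%, and it held the longest uncovered stretch of all clusters, 17180 bp (chr11:96217731-96234910). From Hoxb9 to Hoxb1, a span chosen after the data were seen, 47.7% was covered. With that span Hoxb stood between Hoxd and Hoxa. In Hoxc the longest uncovered stretch was 7090 bp, between Hoxc11 and Hoxc10 (chr15:102956621-102963710). In Hoxd it was 8770 bp, between the main part of the cluster and Hoxd1 (chr2:74753861-74762630). A similar stretch of 8560 bp separated Hoxb2 from Hoxb1, so Hoxb1 and Hoxd1 each stood apart from the rest of the covered sequence. With each cluster split into 3 parts of equal length, the anterior, central and posterior parts were covered to 54.1%, 56.6% and 49.8% in Hoxa, and to 48.6%, 45.4% and 14.7% in Hoxb. In Hoxc the values were 38.9%, 25.1% and 25.3%, and in Hoxd 33.8%, 31.3% and 44.1%. Hoxd was thus the only cluster with its densest part at the posterior end.

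Hox regions were wider than usual, and for their width their scores were low. The median width was 610 bp (quartiles 350 and 1040), beside 460 bp over all regions. Hoxd taken alone had the same median as all regions, 460 bp. Regions wider than 2000 bp numbered 15 of 231 (6.49%), beside 1.03% of all regions. The median score of 465 was close to the 462 of all regions, and 50 Hox regions (21.6%) were in the upper 25% by score, a share below the background of 25.0%. Score grew with width (Spearman's rho = 0.76 across 231 regions and 0.80 across 220894, with regions of a cluster sharing capture and base composition). Each score was therefore also set against all regions whose width differed by at most 50 bp, as the percentage of them with a lower score. This width-matched percentile had a median of 32.6 in the Hox clusters, 51.0 over all regions and 52.2 in the flanks of 100 kb. It was above 50 in 71 of 231 Hox regions (30.7%). Among the 8 flanks its median ran from 33.6 posterior of Hoxb (27 regions) to 62.1 anterior of Hoxa (15 regions). The posterior Hoxb flank was thus close to Hoxb itself, with 30.1. With widths from 400 to 800 bp the median was 433 for Hox regions, 634 for those of the flanks and 635 for the whole list. Scores under 200 were found in 31 Hox regions (13.4%), beside 19.7% of all regions, so low scores as such were not more frequent over the 4 clusters together. In Hoxd the share was 20.4% (10 of 49), close to that of all regions.

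Regions of other homeobox and T-box genes outside the clusters also scored low for their width. The 509 regions within 77 such genes and 1000 bp to each side had a median width-matched percentile of 26.2, a median score of 353 and a median width of 470 bp. Of these regions, 25.5% scored above the median for their width, beside 30.7% in the Hox clusters. All 3 medians were below those of the Hox regions, and the difference was not tested.

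**Figure D2:**
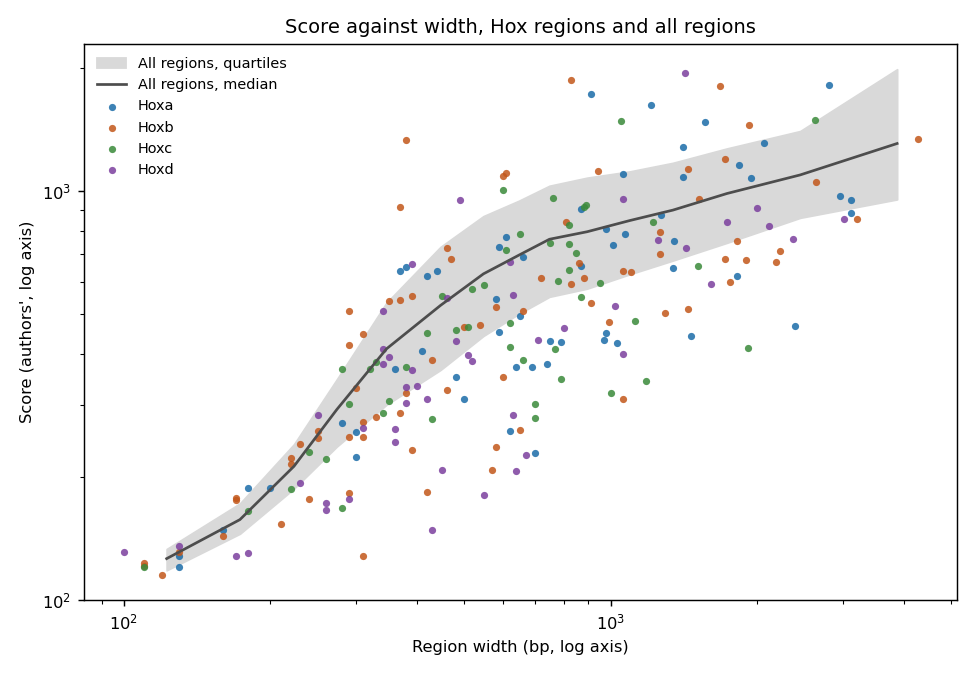
Score of each Hox region (points, coloured by cluster) against its width in bp, both on log axes, over the median (line) and quartiles (grey band) of all 220894 regions in width bands. Most Hox points from 400 bp upwards lie under the line: in the band of 700 to 800 bp the Hox median is 427 and that of all regions 762.

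The 4 clusters differed in score. The median was 620 in Hoxa (quartiles 372 and 877), 508 in Hoxb (250 and 703), 457 in Hoxc (320 and 706) and 383 in Hoxd (226 and 593). The ranges overlapped almost wholly, from 120 to 1822 in Hoxa and 128 to 1941 in Hoxd. Part of the order went with width, whose median was 770 bp in Hoxa, 540 bp in Hoxb, 650 bp in Hoxc and 460 bp in Hoxd. At matched width the median percentiles were 35.9 in Hoxa, 30.1 in Hoxb, 35.0 in Hoxc and 23.8 in Hoxd, so Hoxa no longer stood out and Hoxd remained lowest. Between 400 and 800 bp, Hoxa had a median score of 428, Hoxb 468, Hoxc 470 and Hoxd 383. Only 9 of 49 Hoxd regions scored above the median for their width, against 19 of 56 in Hoxa, 29 of 77 in Hoxb and 14 of 49 in Hoxc.

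Of 3 position classes, the posterior one had the lowest median score. Each region was given to the shortest Hox gene it touched, or else to the nearest one. Group 3 held 58 of the 74 anterior regions. Its gene models in Hoxa, Hoxb and Hoxd span central genes, so regions at the starts of central genes can count as anterior. Examples are regions of score 1280 at Hoxa4 and 1118 at Hoxb4. In Hoxb, 21 of the 26 posterior regions touched the interval between Hoxb13 and Hoxb9. Regions of the anterior paralogs 1 to 3 had a median score of 535 (74 regions), those of the central paralogs 4 to 8 a median of 495 (65 regions) and those of the posterior paralogs 9 to 13 a median of 398 (92 regions). The posterior value was the lowest in each cluster, with 638, 632 and 443 in Hoxa, 587, 470 and 456 in Hoxb and 400, 393 and 310 in Hoxd, although central and posterior genes of Hoxb were close. Single paralog groups did not follow this order. The lowest median, 270, belonged to anterior group 1 (7 regions), and central group 8 with 363 (16 regions) was below all posterior groups, which ran from 367 to 475. Hoxc has no paralogs 1 to 3, and its values were 603 for central and 384 for posterior genes. At matched width the difference was smaller, with median percentiles of 35.9, 29.7 and 31.0. In Hoxa the percentile was 47.5 for anterior and 22.8 for posterior genes, and in Hoxb it was 32.8 and 36.9. By gene class the clusters therefore did not share one direction. Across regions, Spearman's rho of score with position from anterior to posterior was -0.10 in Hoxa, -0.12 in Hoxb, -0.46 in Hoxc and -0.12 in Hoxd, and that of width with position was -0.25 in Hoxc. For the width-matched percentile the rho was -0.25 in Hoxa, -0.04 in Hoxb, -0.18 in Hoxc and -0.01 in Hoxd. With each cluster split into 3 parts of equal length in place of the gene classes, the median scores from anterior to posterior were 552, 461 and 367. At matched width the median percentiles of these parts were 36.0, 30.2 and 26.2. From the anterior to the posterior part the percentile fell in Hoxa (51.7 to 28.0) and Hoxc (40.6 to 28.3). It rose in Hoxb (29.6 to 32.6) and Hoxd (12.6 to 20.5). None of the 19 posterior Hoxd regions, from Hoxd9 to Hoxd13, scored above the median for its width.

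**Figure D3:**
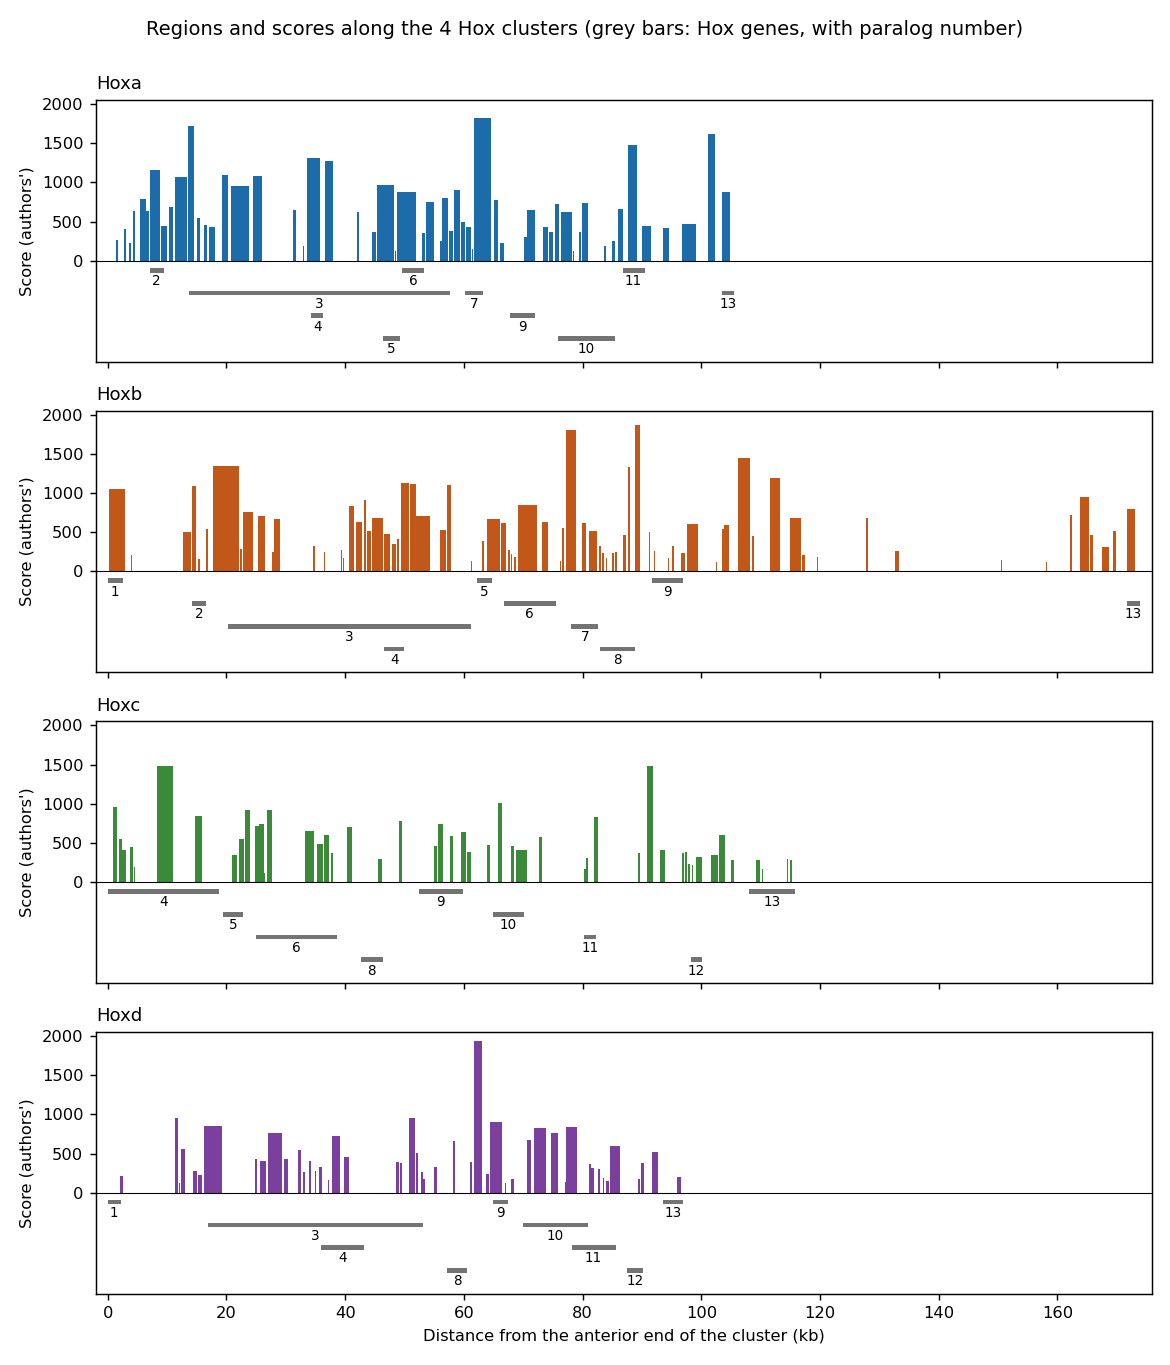
Regions along each cluster drawn to scale, with distance from the anterior end in kb and the authors' score as height; grey bars below are Hox genes (1 is not drawn) with their paralog number. The tallest regions stand at Hoxa7 (1822), Hoxb8 (1872), inside Hoxc4 (1488) and between Hoxd9 and Hoxd8 (1941), and much of the interval between Hoxb9 and Hoxb13 is empty.

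Nearly every Hox gene start had a region. A region lay within 1000 bp of the start in 37 of 39 genes (94.9%), beside 71.9% of the 17492 protein-coding genes with a strand in the promoter table. The middle gap between regions of a cluster was 450 to 860 bp, shorter than this window. Starts were not set against other positions in the clusters, so the part of dense cover in this share was not tested. The 39 genes are the full set and are not independent, so no interval is given. Within 500 bp there were 34 (67.0% of protein-coding genes) and within 2000 bp again 37 (76.4%). The start base itself was inside a region in 22 Hox genes (56.4%), beside 38.8%. The exceptions were Hoxc4 and Hoxd4, whose outer starts lay 2157 and 2573 bp from the nearest region. Both genes held regions further in, 7 in Hoxc4 with scores up to 1488 and 4 in Hoxd4 up to 727. The start is the outer end of the RefSeq gene. For Hoxa3 (44.0 kb), Hoxb3 (40.8 kb), Hoxd3 (36.3 kb) and Hoxc4 (18.8 kb) this is the start of a long transcript and not of the short one next to the coding exons. The promoter listed for Hoxc4 was wholly covered, by a region of score 416. For Hoxb8 and Hoxd10 the only listed promoter also lies away from the outer start, by 2504 and 7618 bp. That of Hoxb8 was uncovered, and that of Hoxd10 was wholly covered, with a score of 822.

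Over the 37 covered starts the highest score near the start had a median of 647, beside 745 over protein-coding genes with a region there. It was above 745 at 16 Hox starts, 8 of them in Hoxa, 4 in Hoxb, 2 in Hoxc and 2 in Hoxd. The median was 875 in Hoxa, 635 in Hoxb, 392 in Hoxc and 450 in Hoxd. In 8 of the 11 paralog groups with a Hoxa gene, the Hoxa gene had the highest score. These values depended on the window. Within 500 bp the Hox median was 565, beside 667 for protein-coding genes, and Hoxa was highest in 6 groups. Within 2000 bp the medians were 828 and 813, so the Hox genes were no longer below, and Hoxa was highest in 5 groups. Between 500 and 1000 bp the score changed by more than 1.5 times at 6 genes, Hoxa2, Hoxa13, Hoxb9, Hoxb13, Hoxd3 and Hoxd9. Hoxb6, Hoxc6 and Hoxd8 had no region within 500 bp. At matched width 11 of the 37 start regions were above the median. The best region could lie up to the limit of the window, as at Hoxd9 and Hoxa5, where it began 998 and 987 bp inside the gene.

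Among anterior genes, which pattern the hindbrain and its neural crest, Hoxa2 had the highest start score, 1160 (chr6:52162411-52164240), while the region over its start base scored 450. Hoxb1, a gene of the fourth hindbrain segment, had 1051 in a region that covered 90.7% of the gene. Its paralog Hoxd1 had 208, and the score at Hoxb1 was 5.05 times as high. Hoxa3, needed for thymus and parathyroid, had 906 within 1000 bp of its outer start, and the region over the start base itself scored 377. Hoxd3 had 508, and 261 within 500 bp. Hoxb3 had 131, in a region of 130 bp that ended 11 bp before the start. Hoxb2 had 537.

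The central genes, which act in the neck and thorax, held both the highest and the lowest start scores within 1000 bp. Hoxb8 had 1872 in 830 bp ending 21 bp before its outer start (chr11:96278551-96279380), while its listed promoter further in was uncovered. Hoxa7 had 1822 in 2800 bp that included its start (chr6:52217141-52219940). Their paralogs were lower, with 301 at Hoxc8, a gene of brachial motor neurons, 393 at Hoxd8 and 515 at Hoxb7. Paralog group 4 had 1310 at Hoxa4 and 1131 at Hoxb4, a regulator of blood stem cells, while both remaining members had no region. Group 5 was the most even of the groups with 3 covered members, with 972 at Hoxa5, a gene of lung development, 915 at Hoxc5 and 670 at Hoxb5. Group 6 ran from 755 at Hoxa6 over 371 at Hoxc6 to 128 at Hoxb6. The Hoxb6 region of 310 bp (chr11:96291841-96292150) lay 664 bp before the start, and its width-matched percentile was 0.384, the lowest of all 231 regions. Within 500 bp Hoxb6, Hoxc6 and Hoxd8 had no region. Within 2000 bp they had 1803, 706 and 1941. In that window Hoxb6 was the highest of group 6, and Hoxd8 was above the 1872 of Hoxb8.

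The posterior genes, which pattern the lower trunk, limbs and urogenital tract, all had a region within 1000 bp of the start, with scores from 286 to 908. Group 9 had 908 at Hoxd9, 647 at Hoxa9, 641 at Hoxc9 and 600 at Hoxb9. Within 500 bp the values of Hoxa9 and Hoxc9 were the same, but Hoxd9 had 180 and Hoxb9 had 237. Hoxa9 is a leukaemia oncogene when overexpressed. In group 10 the scores were 656 at Hoxa10, 412 at Hoxc10 and 365 at Hoxd10, and in group 11 they were 828 at Hoxc11, 593 at Hoxd11 and 443 at Hoxa11. Wide regions of low score stood at several of these starts. The Hoxc10 region of 1910 bp had a width-matched percentile of 1.88, the Hoxc12 region of 1000 bp (score 320) one of 2.29 and the Hoxa11 region of 1460 bp one of 3.79. Hoxd12 had 383. Among the terminal genes, Hoxa13 and Hoxd13, both genes of digit formation, had 875 and 808, Hoxb13, a prostate gene, had 793, and Hoxc13, a hair gene, had 286. Within 500 bp Hoxa13 had 240 and Hoxb13 had 355. The Hoxd13 region (chr2:74667221-74667830) lies just outside the cluster bound and is no member.

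**Figure D4:**
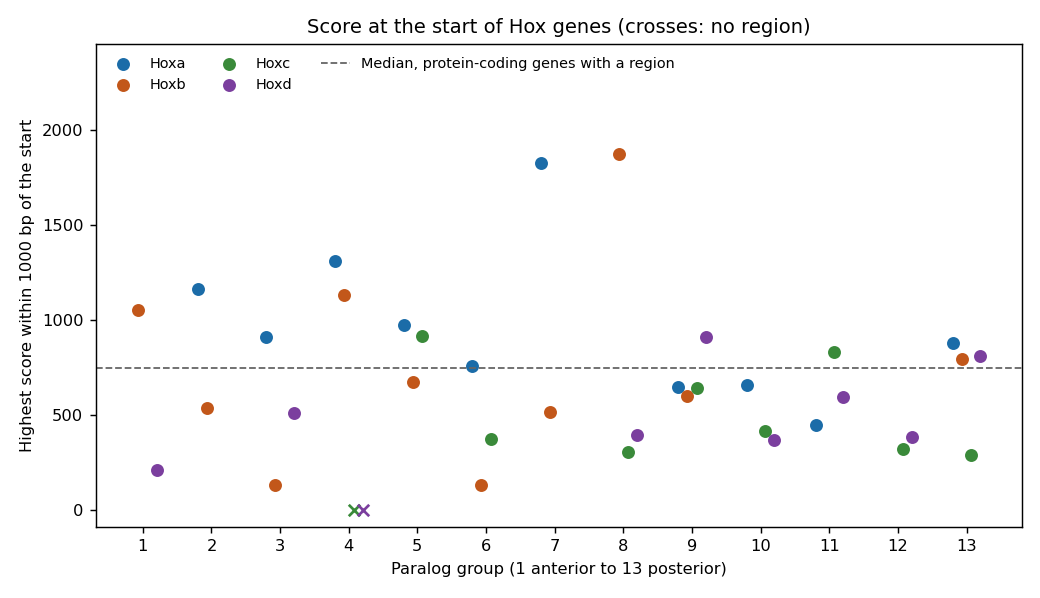
Highest score within 1000 bp of the start of 38 Hox genes, by paralog group from 1 (anterior) to 13 (posterior) and coloured by cluster; crosses at 0 mark Hoxc4 and Hoxd4, which had no region there, and the dashed line is the median of 745 over protein-coding genes with a region. Hoxa7 and Hoxb8 stand above all others, and from group 9 on only 5 points are above the line.

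CpG number did not separate covered from uncovered promoters. RefSeq's table held 24 promoters of 300 bp (250 before and 50 after the start) for 22 Hox genes, of which 18 (75.0%) touched a region and 11 (45.8%) were wholly covered. Of all promoters in the table, 48.4% touched a region and 21.2% were wholly covered. They had a median of 14.5 CpGs, with a range from 4 to 45, beside a median of 7 over all 32851 promoters. The 6 uncovered promoters, of Hoxa13, Hoxb8, Hoxd4, Hoxd8, Hoxd9 and Hoxd13, had a median of 16.5 and the 18 covered ones 14.5. Those of Hoxa13 and Hoxd13 were the richest, with 45 and 37 CpGs. Spearman's rho of CpG number with the covered share was -0.05 over the 24 promoters, which share clusters and include 2 each of Hoxa10 and Hoxd11. Searched on both strands, TATAAA occurred in 4 of 24 Hox promoters (16.7%) beside 13.6% of all, CCAAT in 15 (62.5%) beside 37.4%, and GGGCGG in 10 (41.7%) beside 35.7%. These are matches of letters and do not show that a factor binds.

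Several of the highest scores lay more than 1000 bp from the gene starts. Of the 231 regions, 62 were within 1000 bp of a Hox start, 114 elsewhere in a Hox gene and 55 between genes. Their median scores were 512, 455 and 468 and their median widths 780, 565 and 620 bp, and at matched width the regions at starts had the lowest median percentile, 26.4, beside 33.3 and 32.6. The highest score of all, 1941, was 1420 bp between Hoxd9 and Hoxd8 (chr2:74702061-74703480), overlapping the non-coding gene Gm38462. In Hoxa, 1623 was found between Hoxa11 and Hoxa13 (chr6:52256481-52257690) and 1727 at the 3' end of Hoxa3 (chr6:52168901-52169810). In Hoxb, 1803 was at the 3' end of Hoxb7 (chr11:96289361-96291040) and 1450 in the interval beyond Hoxb9 (chr11:96260131-96262050). The region of score 1941 lies 1135 bp from Hoxd8. With a window of 2000 bp, it and the region of score 1803 count as start regions, of Hoxd8 and Hoxb6. The widest Hox region, 4270 bp with a score of 1340, lay in Hoxb3 (chr11:96346231-96350500), and only 9 other regions in the genome were within 50 bp of its width.

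Long non-coding genes in and beside the clusters were covered, both those that overlap a Hox gene and those that lie between or outside them. All 12 long non-coding genes of the list were touched by a region, beside 68.6% of such genes in the table, and 94 of the 231 regions (40.7%) touched a gene that is not protein-coding, beside 14.8% of all regions. Hotair, a transcript between Hoxc12 and Hoxc11 much studied for its link to Polycomb complexes, was covered to 35.3% with a highest score of 1480 (chr15:102945041-102946090), within 8 of the cluster's highest score of 1488. Hoxa11os, antisense to Hoxa11, was covered to 52.6%, and a region inside Hoxa11 that ends 723 bp before the antisense start scored 1476. Haglr, next to Hoxd1, was covered to 23.5% with 952. Hottip and Halr1 lie outside the cluster bounds and had 1043 and 1056. Regions were matched to genes by position only, so a region shared by a Hox gene and its antisense partner was counted for both. The DNA strand that the reads of a region came from was not tested.

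Genes that act with or upstream of Hox genes mostly had a region at the start too. Of 32 such genes with a known strand, of 44 listed, 31 (96.9%) had a region within 1000 bp of it, beside 71.9% of protein-coding genes, with a median score of 745, equal to that of protein-coding genes. All 5 partner homeodomain genes with a strand were among them, from 195 at Meis3 to 861 at Meis1. MEIS and PBX proteins bind DNA together with HOX proteins. The 11 Polycomb genes, whose products keep Hox genes silent, had a median of 1067, with 1572 at Jarid2, 1388 at Pcgf2 and 1156 at Ezh2. The 4 Trithorax and related genes, which counter Polycomb, had 1481 at Kdm6a, 1231 at Wdr5, 611 at Men1 and 185 at Kmt2a. Retinoic acid switches on anterior Hox genes, and 6 of 7 genes of that pathway had a region (71.9% of protein-coding genes did), with 875 at Rarg and none at Rarb. Among the other homeobox and T-box genes, 51 of 53 with a strand (96.2%) had one, against the same 71.9%, with a median of 486, which is below the 647 of the Hox genes.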

How the data were processed

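DNA of 8 mouse cell lines, in the groups that the labels give, was capture-enriched and bisulfite sequenced. The submitters' processing notes list Novoalign 3.7.1, Picard and the build mm10. The region caller, any filter and the meaning of the score are not given in these sources. The authors deposited 1 list of regions for the whole series, each with 1 score of at least 100 and no value per line, so the depth per line is unknown and the planned comparison of IDH mutant with wild-type lines was not run. Part of the mouse genotype and the values of 1 Hox gene are not reported here.

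Overlaps, covered bases, medians and percentiles were computed with Python 3.11.15, pandas 2.3.3, numpy 2.4.6 and SciPy 1.17.1, and the overlap and percentile functions were tested on simulated data. Coordinates count from 1. Genes came from RefSeq's table of GRCm38.p6, the assembly that mm10 names. Strand came from RefSeq's promoter table (22 of 39 Hox genes), and the other Hox genes were given the strand of their cluster. The other Hox genes were to be named, with the highest and the lowest scoring regions of each cluster. All 44, 77, 10 and 18 genes of the lists of cofactors and regulators, other homeobox and T-box genes, neighbours and non-coding genes were found. Members, lists and position groups were chosen with earlier results of these data known.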

Additional observations from a re-analysis of the deposited data

How the results depend on the processing

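No value has a replicate error and the depth of each line is unknown. No paired analysis was possible because the list has no value per line. A median counted as moved if it left its 95% binomial interval, and a count or covered share if it changed by over 1.5 times. That interval served only as a limit and is no sampling error, because regions of a cluster are not independent. Of 105 alternative values for 37 results, 96 did not move. Part of these could not move or hardly could, so the tally does not measure how robust the results are. All 231 regions had their midpoint inside a cluster, so the setting that required this changed nothing. Filters on score and width left 200 and 216 of the 231 regions, far from a change of 1.5 times. Of 69 alternative start scores of 36 single Hox genes, 14 moved by over 1.5 times. Hoxb6, Hoxc6 and Hoxd8 lost their region within 500 bp and gave no value there, so these losses are not in the tally. Among regions of 400 to 800 bp, the Hoxa median score was 428 and its median width-matched percentile 21.0, and the percentile over all clusters was 23.9. With scores of at least 200 only, the median score over all clusters was 535. With the promoter of 300 bp in place of the window of 1000 bp, 72.7% of the Hox genes in the promoter table had a region. With a window of 2000 bp the median start score was 828, and Hoxa was highest in 5 paralog groups. With flanks of 500 kb, coverage beside Hoxa was 6.90% and beside Hoxd 3.89%, where flanks of 100 kb gave 11.2% and 7.40%. The span from Hoxb9 to Hoxb1 was chosen after seeing the data. The cause of these differences was not tested.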

Other observations

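Single regions stood far from others of their width, and these are given as values. Inside Hoxb8, a region of 380 bp (chr11:96280191-96280570) scored 1331, above 99.5% of regions of like width, and it lies 810 bp from the region of score 1872 before the gene's start. Inside the long Hoxb3 gene, 370 bp (chr11:96324781-96325150) scored 913, above 96.2%. At the other extreme, 2390 bp between Hoxa11 and Hoxa13 (chr6:52252131-52254520) scored 468, above 0.463% of regions of like width, 1960 bp from the region of score 1623 on the side of Hoxa13. In Hoxd, 430 bp inside Hoxd11 (chr2:74680761-74681190) scored 148, 550 bp before Hoxd9 (chr2:74696731-74697280) scored 180 and 640 bp inside Hoxd13 (chr2:74668601-74669240) scored 207, each above less than 1% of regions of like width. The score is 1 value for 8 lines, so which lines contribute to any of these is unknown.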
